A study of Mus musculus with 9 samples.

Results

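KLF transcription factors were followed across 3 groups of lung neutrophil libraries from mice with and without breast cancer lung metastasis. The genes described are Klf2, Klf3, Klf4, Klf6, Klf7, Klf10 and Klf13, chosen by gene symbol, with earlier results of these data known. They are 7 of the 22064 genes listed in the deposited tables, and all 7 were among the 14108 genes that passed the filter on low counts. Bulk RNA sequencing was carried out on 9 libraries from female BALB/c mice, 3 per group, which asked how the transcriptomes of lung neutrophil subsets differ at a late stage of metastasis and from the normal state. Ly6Ghigh MACRO and Ly6Glow MACRO are cells with high or low surface Ly6g, sorted from lungs at the macrometastatic stage, when larger visible nodules are present. The tumor came from an injection into the mammary fat pad of 4T1-LM3 cells, which were made from 4T1, a mouse mammary carcinoma line carrying luciferase, by 3 rounds of passage through mice for growth in the lung. Ly6Ghigh NL is the Ly6g high cells of normal lung, from mice without tumor. The mice were bought at 6 to 8 weeks of age, and no genetic change is named for any group. All groups shared the enzymatic lung dissociation and a sort on CD45 and Ly6g, and the model is 1 selected cell line in 1 mouse strain. Whether a library is 1 mouse or a pool is not stated, so p-values measure the spread between libraries, which may in part be technical.

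KLF proteins bind GC-rich and CACCC sequences through zinc fingers at their carboxyl end and act as activators or repressors depending on the domain in front of them. Klf2 and Klf4 are known as brakes on inflammatory activation in blood vessel endothelium and in myeloid cells, and Klf4 also drives monocyte differentiation. Klf6 is known to promote inflammatory gene expression in macrophages, Klf3 recruits the corepressor CtBP, Klf10 is a TGF-beta-induced repressor that binds Sin3, and Klf13 was described as a late regulator of Ccl5 in T cells.

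The libraries held 15267177 to 17841807 counts each, so each member was covered by 241 to 13175 counts per library and counting error was small. Levels are given as CPM, counts divided by a library size that was scaled by TMM, a factor that centers most genes between libraries, and levels are compared between genes only as FPKM, which divides by transcript length. The TMM factors differed by group, from 0.803 in Ly6Glow MACRO to 1.32 in Ly6Ghigh NL, so the choice of scaling bears on every comparison. Without TMM, on total counts, the median log2 fold change of all tested genes moved from -0.09 to -0.55 in Ly6Ghigh MACRO over NL, from -0.16 to -0.86 in Ly6Glow MACRO over NL and from -0.04 to -0.28 in Ly6Glow over Ly6Ghigh MACRO. The share of called genes that were higher moved with it, from 41.8% to 20.3%, from 41.3% to 14.3% and from 36.8% to 13.3%. The mRNA of Ly6g, the sort marker, was at a mean of 374 CPM in Ly6Ghigh MACRO, 394 CPM in Ly6Glow MACRO and 119 CPM in NL. On this scale Ly6Glow differed little from Ly6Ghigh MACRO (log2 fold change 0.08, adjusted p = 0.0577, edgeR). The direction depended on the scale, since mean FPKM was 409 in Ly6Ghigh MACRO and 366 in Ly6Glow MACRO. The MACRO libraries did not overlap between the high and low gates on either scale. The summed level of 15 neutrophil markers was 105785 to 108328 CPM in Ly6Ghigh MACRO, 90511 to 92378 in Ly6Glow MACRO and 24457 to 24727 in NL, led by S100a9 in each group. Summed markers of several other cell types were higher in NL. The 11 endothelial markers, all with counts in each group and led by Pecam1, were at 204 to 209, 249 to 251 and 1391 to 1433 CPM in the same order of groups, the 11 epithelial or tumor markers at 104 to 112 in the MACRO libraries against 1110 to 1245, and the 8 fibroblast markers at 52.4 to 60.6 against 545 to 577. The 13 monocyte and macrophage markers were at 687 to 693, 638 to 658 and 1087 to 1159 CPM, the 14 alveolar macrophage markers at 1625 to 1678, 372 to 391 and 2150.2 to 2176 CPM, and the 10 dendritic cell markers at 587 to 619, 349 to 383 and 1492 to 1752 CPM. The most abundant marker of a list did not always follow its sum. Csf1r, of the first list, was at 215 to 221, 290 to 308 and 248 to 269 CPM. Chil3, of the second, was at 1253 to 1299, 268 to 289 and 951 to 981 CPM, while Cd74, of the third, was highest in NL. The basophil and mast cell, eosinophil and B cell sums were highest in a MACRO group. The 8 basophil and mast cell markers were at 147 to 149, 249 to 253 and 85.1 to 87.6 CPM, the same order of groups as for Klf6 and Klf7. Most of each sum was Kit, at 103.5 to 104.0, 222 to 228 and 57.5 to 58.9 CPM, and in NL 6 of the 8 were under 1 CPM. The order of the sums is that of Kit, and the list without Kit was not summed. The 6 eosinophil markers were at 79.9 to 86.0, 35.7 to 37.4 and 40.3 to 43.1 CPM. The 6 B cell markers with values were at 48.6 to 49.6, 28.9 to 31.0 and 30.3 to 33.0 CPM, and the part of these sums in the results was not tested. In bulk libraries, fewer cells of a type and less RNA per cell cannot be told apart.

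A gene was called when the edgeR quasi-likelihood test gave a Benjamini-Hochberg adjusted p of at most 0.05 and the log2 fold change was beyond 0.58 in either direction. In Ly6Ghigh MACRO over Ly6Ghigh NL, Klf2 and Klf13 rose and Klf4 fell. This was 3 of 7 members called, where 62.9% of all tested genes were called, 26.3% higher and 36.6% lower. In Ly6Glow MACRO over Ly6Ghigh NL, Klf2, Klf13, Klf7 and Klf6 rose and Klf4 fell, 5 of 7 members, where 69.5% of all genes were called, 28.7% higher and 40.8% lower. In Ly6Glow over Ly6Ghigh MACRO only Klf10 was called, and it was higher, where 25.2% of all genes were called, 9.29% higher and 15.9% lower. The CPM values of all 7 members did not overlap between groups in any of the 3 comparisons, against 85.2%, 86.8% and 62.1% of all tested genes in the same order. The 3 comparisons share libraries pairwise, so their values are given side by side and not as independent evidence.

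**Figure D1:**
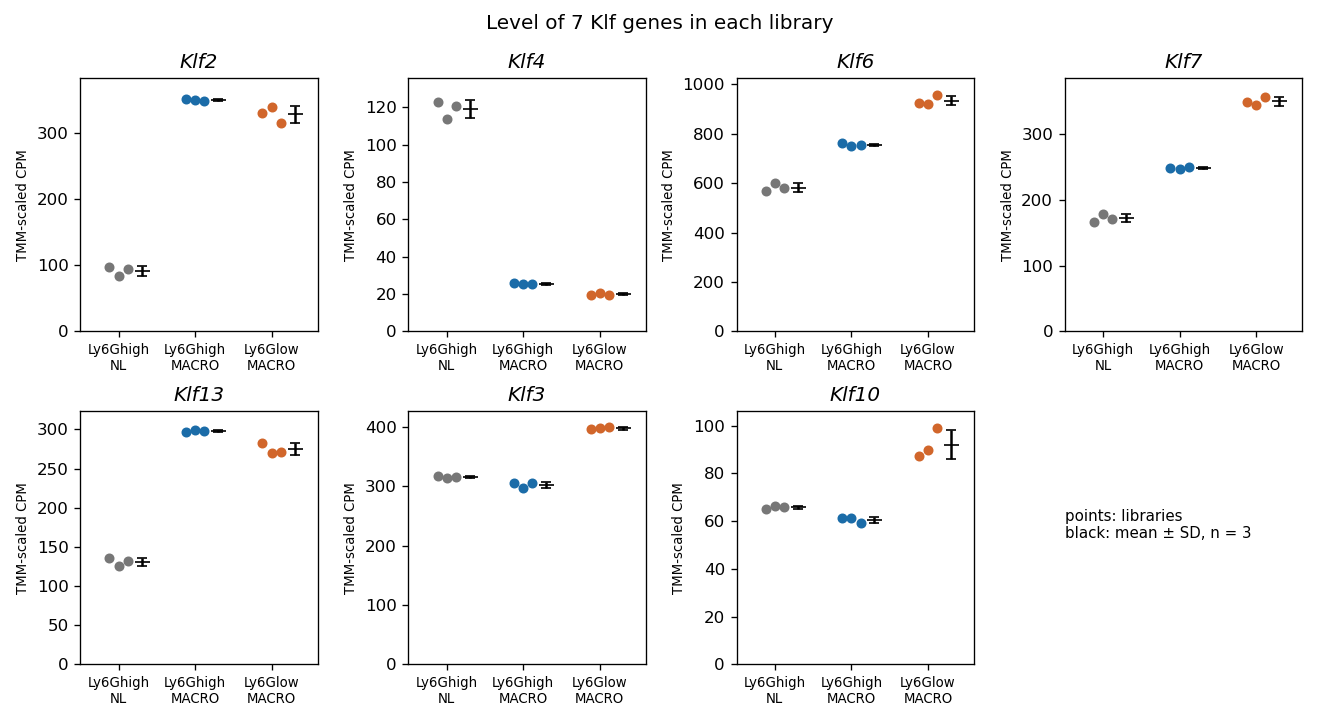
TMM-scaled CPM (y axis, from 0) of the 7 Klf genes in each library (points) by group (x axis), with the mean and SD of 3 libraries in black. Klf2, Klf13, Klf6 and Klf7 sit lowest and Klf4 highest in normal lung, while Klf3, Klf10, Klf6 and Klf7 are highest in Ly6Glow MACRO.

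Klf2 lies at chr8:72319033-72321656 on the plus strand (GRCm38). It was at 350.7, 349.4 and 347.6 CPM in Ly6Ghigh MACRO, at 329.8, 339.9 and 314.6 in Ly6Glow MACRO, and at 97.0, 83.6 and 93.7 in NL. Every MACRO library was above every NL library. The level was 3.82-fold higher in Ly6Ghigh MACRO than in NL (log2 fold change 1.93, SE 0.0449, adjusted p = 4.22e-20, edgeR) and 3.59-fold higher in Ly6Glow MACRO than in NL (1.84, SE 0.0453, adjusted p = 8.79e-20, edgeR). Between the tumor-bearing groups the difference was small with TMM, with a log2 fold change of -0.09 (95% interval -0.178 to -0.00229, adjusted p = 0.0756, edgeR). This difference depended on the scaling, at -0.33 on total counts and -0.33 on log2(FPKM + 1), and was called on neither. On total counts the NL comparisons gave 1.47 and 1.14, and both were still called. Endothelial cells are known to express Klf2, and the part of the endothelial marker sums, given above, in this result was not tested.

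Klf4 lies at chr4:55527143-55532466 on the minus strand and moved opposite to Klf2. It was at 26.1, 25.4 and 25.1 CPM in Ly6Ghigh MACRO, at 19.6, 20.7 and 19.6 in Ly6Glow MACRO, and at 122.9, 113.8 and 120.4 in NL. The MACRO libraries were all far below the NL libraries. The level was 4.66-fold lower in Ly6Ghigh MACRO (log2 fold change -2.22, SE 0.0492, adjusted p = 1.98e-20, edgeR) and 5.96-fold lower in Ly6Glow MACRO (-2.58, SE 0.0538, adjusted p = 5.94e-21, edgeR) than in NL. The smaller difference of Ly6Glow from Ly6Ghigh MACRO, -0.36 (SE 0.0660, adjusted p = 8.79e-05, edgeR), stayed within the fold threshold, but on total counts it was -0.59 and was called. Endothelial, epithelial, fibroblast and macrophage marker sums were higher in NL, as given above, and Klf4 is known to be expressed in such cells. Their part in the Klf4 result was not tested.

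The ratio of 2 counts within a library does not depend on any scaling between libraries. Klf2 counts per Klf4 count were 13.4, 13.8 and 13.8 in Ly6Ghigh MACRO, 16.9, 16.4 and 16.0 in Ly6Glow MACRO, and 0.789, 0.735 and 0.778 in NL. All 6 MACRO libraries were far above the 3 NL libraries. Per length, mean FPKM was higher for Klf2 than for Klf4 in NL too, at 67.7 against 52.0. The ratio was 17.8-fold higher in Ly6Ghigh MACRO and 21.4-fold higher in Ly6Glow MACRO than in NL, and 1.20-fold higher in Ly6Glow than in Ly6Ghigh MACRO. An exact two-sided permutation test of 3 against 3 libraries gave p = 0.1 for each, the smallest that this design allows. The windows before the start sites of both genes, with that of Klf13, which rose with Klf2, are shown so that the members that moved together and apart can be compared.

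The windows come from the RefSeq promoter table on GRCm38.p6, cut to bases outside the annotated gene, 5′ to 3′ on the strand of the gene. Capitals mark the GC box letters GGGCGG on either strand and, in Klf2, the letters CTANNNNTAG. The search was looser than a MEF2 motif, since any base was allowed at N, and in Klf2 the bases at N read AATT. They span chr8:72318812-72319032 (plus) for Klf2, chr4:55532476-55532725 (minus) for Klf4 and chr7:63938916-63939165 (minus) for Klf13:
Klf2: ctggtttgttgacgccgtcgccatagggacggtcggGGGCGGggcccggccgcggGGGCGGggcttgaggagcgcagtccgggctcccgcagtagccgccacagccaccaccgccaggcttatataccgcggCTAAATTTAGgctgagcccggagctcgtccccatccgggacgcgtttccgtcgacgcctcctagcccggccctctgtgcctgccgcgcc
Klf4: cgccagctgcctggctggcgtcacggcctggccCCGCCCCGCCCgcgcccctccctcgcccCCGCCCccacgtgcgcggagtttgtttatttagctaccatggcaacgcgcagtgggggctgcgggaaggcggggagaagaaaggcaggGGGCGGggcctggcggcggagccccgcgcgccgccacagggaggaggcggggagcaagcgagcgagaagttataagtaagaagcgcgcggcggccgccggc
Klf13: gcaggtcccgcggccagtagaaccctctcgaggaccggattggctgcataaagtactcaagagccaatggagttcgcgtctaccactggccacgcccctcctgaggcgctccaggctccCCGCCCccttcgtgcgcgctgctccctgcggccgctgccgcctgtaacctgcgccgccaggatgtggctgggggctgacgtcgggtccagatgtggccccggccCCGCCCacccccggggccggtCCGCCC

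Of the 7 members, 6 matched an entry of the table and Klf10 did not. Matches were counted in the full 250 bases before the RefSeq start, of which the printed Klf2 window leaves out the 29 inside the annotated gene. GGGCGG was in 6 of the 6, and in 32.7% of all 32851 promoter windows of that length. CTANNNNTAG, with any base at N, was in Klf2 alone among the 6, and in 3.20% of all windows. It begins 118 bases before the RefSeq start of Klf2 and 89 bases before the GENCODE start, since the RefSeq start lies 29 bases further on. CACCC on either strand was in 4 of the 6 (Klf2, Klf3, Klf7 and Klf13) and in 52.0% of all, with the Klf2 match in the bases not printed, and CCAAT was in Klf6 and Klf13 and in 33.9%. CACGTG was in Klf4 and Klf6 and in 6.02% of all. TGACGTCA and TGANTCA were in none of the 6, and in 1.55% and 6.75% of all. Both strands were searched for each, and matches of CACCC and GGGCGG can share bases where they adjoin. GC content of the window was 71.2% for Klf2, 74.0% for Klf4 and 71.6% for Klf13, against a median of 52.4% over all windows. The letters alone show no bound factor.

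Klf6, at chr13:5861482-5870394 on the plus strand, was at 760.7, 751.2 and 754.3 CPM in Ly6Ghigh MACRO, at 925.3, 921.3 and 955.5 in Ly6Glow MACRO, and at 566.2, 601.2 and 578.6 in NL. The order Ly6Glow MACRO, Ly6Ghigh MACRO, NL held without overlap on this scale. The log2 fold change was 0.68 in Ly6Glow MACRO over NL (SE 0.0309, adjusted p = 4.34e-15, edgeR), 0.38 in Ly6Ghigh MACRO over NL and 0.31 in Ly6Glow over Ly6Ghigh MACRO. This gene depended on the scaling, since both NL comparisons turned slightly negative on total counts, -0.09 and -0.02, and on log2(FPKM + 1), where they were also -0.09 and -0.02. Relative to the median of all tested genes, Klf6 stood 0.46 and 0.84 higher in the Ly6Ghigh and Ly6Glow NL comparisons with TMM and with total counts alike.

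Klf7, at chr1:64029447-64122282 on the minus strand, is known from neurons and from adipocyte biology. It was at 249.5, 247.6 and 250.3 CPM in Ly6Ghigh MACRO, at 349.1, 344.2 and 357.3 in Ly6Glow MACRO, and at 166.7, 179.0 and 171.3 in NL. The groups followed the same order as for Klf6. The level was 2.03-fold higher in Ly6Glow MACRO than in NL (log2 fold change 1.02, SE 0.0347, adjusted p = 2.45e-17, edgeR), while the values of 0.53 in Ly6Ghigh MACRO over NL and 0.49 in Ly6Glow over Ly6Ghigh MACRO were under the threshold. All 3 stayed positive under every scaling, and the Ly6Glow call over NL was lost on total counts (0.32) and on log2(FPKM + 1) (0.43).

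Klf13, at chr7:63886351-63938915 on the minus strand, went with Klf2. It was at 296.6, 298.8 and 297.9 CPM in Ly6Ghigh MACRO, at 283.1, 269.8 and 271.5 in Ly6Glow MACRO, and at 135.2, 125.3 and 131.9 in NL. Every MACRO library was above every NL library. The level was 2.28-fold higher in Ly6Ghigh MACRO (log2 fold change 1.19, SE 0.0361, adjusted p = 4.36e-18, edgeR) and 2.10-fold higher in Ly6Glow MACRO (1.07, SE 0.0366, adjusted p = 2.81e-17, edgeR) than in NL. On total counts these were 0.72, still called, and 0.37, no longer called. With TMM, Ly6Glow was below Ly6Ghigh MACRO by a small margin (-0.12, SE 0.0355, adjusted p = 0.00827, edgeR). The margin was -0.35 on total counts and -0.34 on log2(FPKM + 1), called on neither. Counts of Klf13 per count of Klf6, again free of scaling, were 0.394 in Ly6Ghigh MACRO, 0.294 in Ly6Glow MACRO and 0.225 in NL.

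The repressor Klf3, at chr5:64803388-64832901 on the plus strand, was at 305.5, 296.7 and 304.7 CPM in Ly6Ghigh MACRO, at 395.2, 397.4 and 400.1 in Ly6Glow MACRO, and at 316.7, 314.3 and 315.4 in NL. Ly6Glow MACRO stood above both other groups, which lay close to each other. The log2 fold change was 0.40 in Ly6Glow over Ly6Ghigh MACRO (SE 0.0309, adjusted p = 3.61e-10, edgeR), 0.33 in Ly6Glow MACRO over NL and -0.06 in Ly6Ghigh MACRO over NL (95% interval -0.125 to 0.00199, adjusted p = 0.0666, edgeR). None reached the fold threshold, and the Ly6Glow value over NL turned to -0.37 on total counts and -0.32 on log2(FPKM + 1).

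Klf10, at chr15:38291463-38300706 on the minus strand, was at 61.3, 61.3 and 59.2 CPM in Ly6Ghigh MACRO, at 87.5, 89.8 and 99.0 in Ly6Glow MACRO, and at 64.9, 66.5 and 65.9 in NL. The Ly6Glow libraries were highest and replicate 3 the highest of them. The level was 1.52-fold higher in Ly6Glow than in Ly6Ghigh MACRO (log2 fold change 0.60, SE 0.0488, adjusted p = 6.17e-10, edgeR). This value is just past the threshold, and the call was lost without Ly6Glow replicate 3 (0.54), on total counts (0.37) and on log2(FPKM + 1) (0.35), all still positive. The log2 fold change over NL was -0.12 for Ly6Ghigh MACRO and 0.49 for Ly6Glow MACRO, and on total counts the first was -0.58 and called while the second turned to -0.22.

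**Figure D2:**
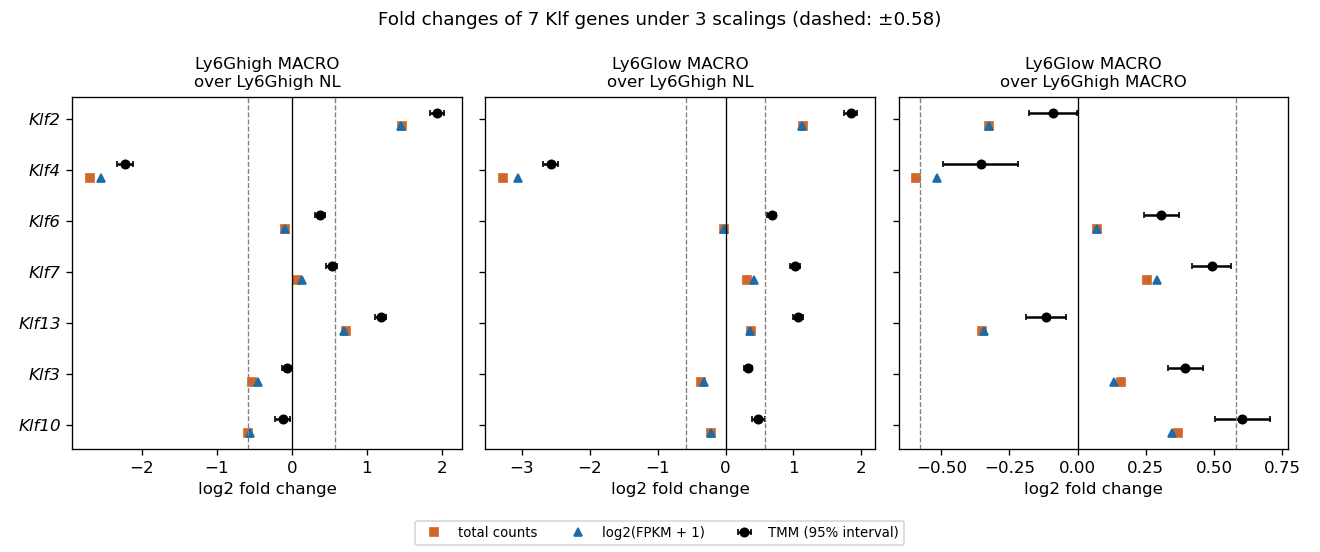
Log2 fold changes (x axis, whose range differs by panel) of the 7 Klf genes in the 3 comparisons, with TMM scaling and its 95% interval (black), on total counts (squares) and on log2(FPKM + 1) (triangles); dashed lines mark 0.58 in either direction. Klf2 stays right and Klf4 stays left of the lines in both NL comparisons under each scaling, while Klf6 falls to about zero.

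Annotated genes on the opposite strand overlap Klf3, Klf7 and Klf13, and on the same strand C230096K16Rik overlaps Klf3 and Mir6899 overlaps Klf7. The libraries were stranded, but whether strand was used in counting is not given in the sources used here, so reads from such partners may be counted with these 3, and reads from the same-strand partners cannot be told apart by strand. The length implied by counts and FPKM differed between groups by at most 0.245 bases for Klf2, Klf4, Klf6 and Klf13, and by 14.0 bases for Klf10. For Klf3 it was 3251 bases in Ly6Ghigh MACRO, 3308 in Ly6Glow MACRO and 3409 in NL, and for Klf7 it was 6011, 5834 and 6316, so the FPKM of these genes also carries a shift in the isoforms the estimate assigned.

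FPKM divides by the library total with no further factor between libraries. As FPKM the 7 members summed to 558 ± 3.13 in Ly6Ghigh MACRO, 540 ± 0.436 in Ly6Glow MACRO and 515 ± 1.80 in NL (SD, n = 3), and the order of the members changed. The FPKM of all genes summed to 569412 to 574415, 536662 to 542936 and 440567 to 445984 in the same order of groups, so FPKM had no common total. As TMM-scaled CPM the sums of the 7 members were 2040.0 ± 10.1, 2397 ± 18.4 and 1477 ± 7.04 in the same order. Which group had the largest sum therefore depended on the scale. Shares within a library do not depend on scaling between libraries. In NL the order of mean FPKM was Klf6 (183), Klf3 (121), Klf2 (67.7), Klf4 (52.0), Klf7 (35.7), Klf10 (28.7) and Klf13 (27.0). In Ly6Ghigh MACRO Klf2 led with 187, before Klf6 (172), Klf3 (88.2), Klf13 (44.5), Klf7 (39.3), Klf10 (19.1) and Klf4 (8.09). In Ly6Glow MACRO Klf6 led with 180, before Klf2 (149), Klf3 (96.8), Klf7 (48.3), Klf13 (34.9), Klf10 (24.6) and Klf4 (5.36). Neighbors in these orders did not overlap between libraries, the closest being Klf10 and Klf13 in NL, whose nearest libraries were at 27.98 and 27.62.

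Of the FPKM sum, Klf2 made up 33.6% in Ly6Ghigh MACRO, 27.7% in Ly6Glow MACRO and 13.1% in NL, and Klf4 made up 1.45%, 0.994% and 10.1%. Klf13 went from 5.24% in NL to 7.97% and 6.46%. Klf6, at 30.8%, 33.4% and 35.5%, and Klf7, at 7.04%, 8.95% and 6.93%, varied less. Klf3 held 15.8%, 17.9% and 23.5%, and Klf10 held 3.42%, 4.55% and 5.57%, both largest in NL.

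**Figure D3:**
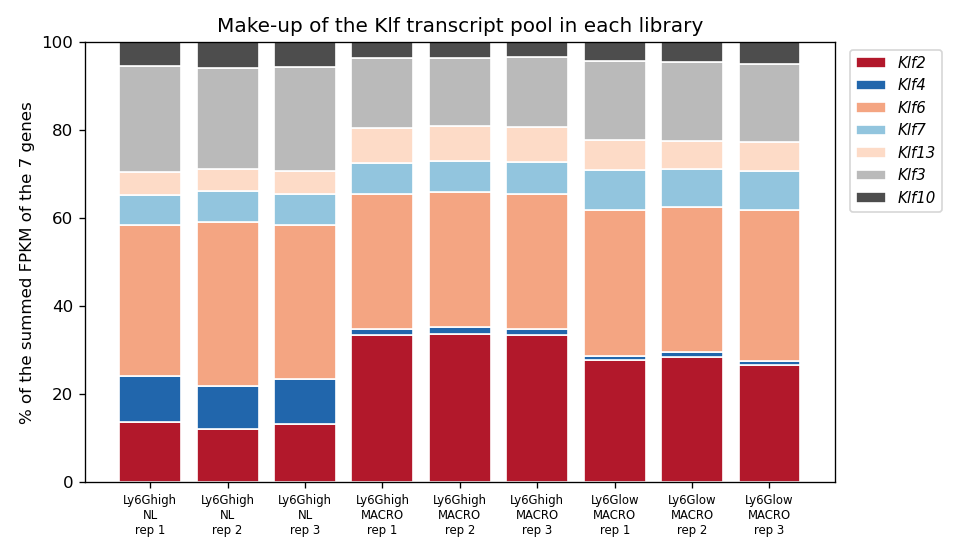
Share of the summed FPKM of the 7 Klf genes taken by each gene (y axis, 0 to 100%) in each of the 9 libraries (x axis). Klf2 grows from about 13.1% in normal lung to 33.6% in Ly6Ghigh MACRO, and Klf4 shrinks from 10.1% to 1.45%.

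Of the other KLF and SP genes, which share the same zinc finger fold, 12 of 19 listed passed the filter. Klf14, Klf17 and Sp7 have blank cells, and Klf1, Sp5, Sp8 and Sp9 were below the filter. Counts for these and for the lists below are to be read beside the shares of all tested genes called. With TMM these shares were 62.9% in Ly6Ghigh MACRO over NL, 69.5% in Ly6Glow MACRO over NL and 25.2% in Ly6Glow over Ly6Ghigh MACRO. On total counts they were 60.9%, 66.1% and 30.5% in the same order. Of the 12, 4 were called higher and 6 lower in Ly6Ghigh MACRO over NL. Klf5, known from epithelia and from granulocyte differentiation, went from 7.98 to 25.0 CPM (log2 fold change 1.65, adjusted p = 1.56e-14, edgeR), Sp3 from 68.4 to 233 CPM (1.77), Sp1 from 88.5 to 172 CPM (0.96) and Klf11 from 19.1 to 30.6 CPM (0.68). The last pair lost the call on total counts, at 0.49 and 0.21. Lower were Klf9, a glucocorticoid-induced gene, from 49.0 to 18.1 CPM (-1.44), Klf12, a repressor, from 9.33 to 3.52 CPM (-1.40), Klf15, another glucocorticoid-induced gene, from 3.21 to 0.447 CPM (-2.83), Klf8 (-0.74) and Klf16 (-0.69). The sixth was Sp6, which had 19, 24 and 28 counts in NL and 2 in each Ly6Ghigh MACRO library. These fell alongside the endothelial, epithelial and fibroblast marker sums, whose part in them was not tested.

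In Ly6Glow MACRO over NL 4 were again higher and 6 lower: Sp3 (1.64), Sp1 (1.32), Klf5 (1.00) and Sp4 (0.90) were higher, of which Klf5 and Sp4 fell to 0.30 and 0.20 on total counts, not called, and Klf15 (-3.12), Klf9 (-1.62), Klf8 (-1.45), Klf12 (-0.97), Klf16 (-0.69) and Sp6, with 0, 1 and 1 counts, were lower. Klf11 (0.32) and Sp2 (0.36) were not called and turned negative on total counts. Between the MACRO groups Klf5 was lower in Ly6Glow, at 15.9 against 25.0 CPM (-0.65, SE 0.0777, adjusted p = 2.76e-07, edgeR). Klf8 was lower too, at 1.43 against 2.33 CPM (-0.71, SE 0.272, adjusted p = 0.0314, edgeR), a call that rested on 8 to 40 counts per library and was lost in 5 of the 9 fits that left out 1 library. On total counts 2 were higher and 6 lower in each NL comparison and 3 were lower between the MACRO groups. The median log2 fold change of the 12 was -0.38 in Ly6Ghigh MACRO over NL, -0.18 in Ly6Glow MACRO over NL and -0.15 between the MACRO groups, beside -0.09, -0.16 and -0.04 over all tested genes.

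**Figure D4:**
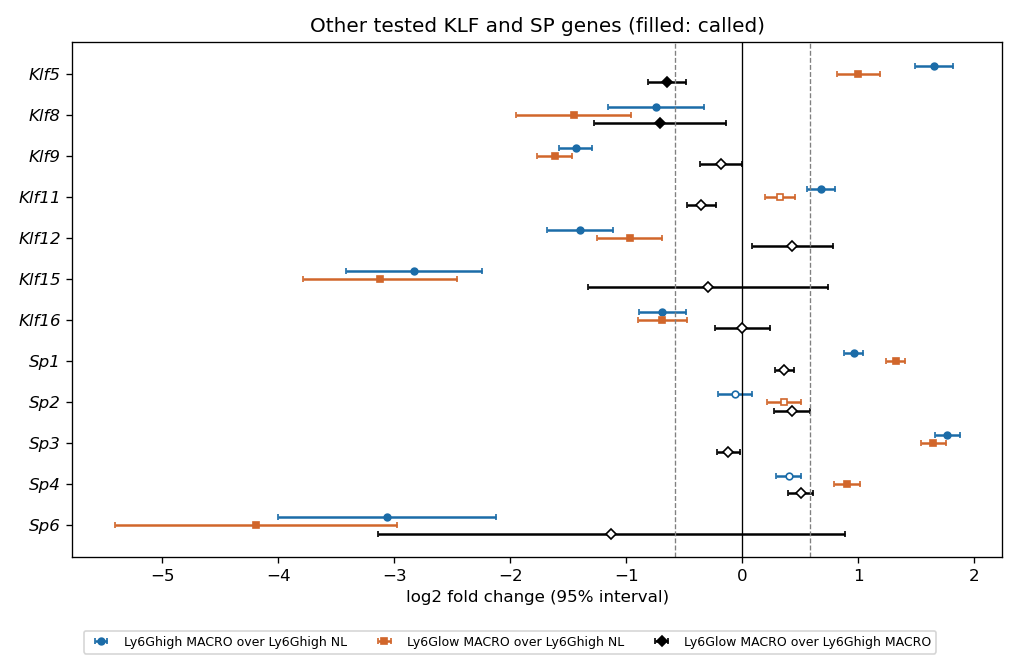
Log2 fold changes with TMM scaling and 95% intervals (x axis) of the 12 other tested KLF and SP genes in the 3 comparisons (circles, squares and diamonds), filled where called. Klf5, Sp1 and Sp3 lie to the right and Klf9, Klf12 and Klf15 to the left in both NL comparisons.

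A list of the MEK5-ERK5-MEF2 route, known to switch on Klf2 and Klf4, and of other genes upstream of them had 9 of 10 genes tested. It includes Foxo1, Hdac5, Hdac7 and Kat2b, so its counts and medians are not those of the route alone. In Ly6Ghigh MACRO over NL 1 was higher and 3 lower, with a median of -0.35. Mapk7, which encodes ERK5, rose from 17.99 to 48.6 CPM (log2 fold change 1.43), and Hdac7, a repressor of MEF2 (-1.53), and Mef2c (-1.23) fell. In Ly6Glow MACRO over NL 2 were higher and 4 lower, with a median of 0.35, and Mapk7 was at 32.6 CPM (0.85, but 0.15 and not called on total counts), Hdac7 at -1.99 and Mef2c at -1.81. The most abundant of the list, Mef2d and Mef2a, were at 168 and 145 CPM in NL and were called in neither NL comparison with TMM scaling. Between the MACRO groups Mef2d was higher in Ly6Glow (0.71, 0.47 on total counts, not called) and Mef2c lower (-0.59), which makes 1 higher and 1 lower. On total counts the list had 1 higher and 5 lower, 0 higher and 4 lower, and 0 higher and 4 lower in Ly6Ghigh MACRO over NL, Ly6Glow MACRO over NL and Ly6Glow over Ly6Ghigh MACRO. The endothelial marker sums fell from NL alongside Hdac7 and Mef2c, and their part in these values was not tested.

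Of 11 TGF-beta and SMAD genes, the pathway in which Klf10 was described, 1 was higher and 6 were lower in Ly6Ghigh MACRO over NL, with a median of -0.71. The inhibitory Smad6 fell from 31.6 to 3.23 CPM (-3.29), the corepressor Ski from 172 to 79.7 CPM (-1.11) and the receptor Tgfbr2 from 217 to 118 CPM (-0.88), and Smad4 rose (0.71, 0.24 on total counts, not called). In Ly6Glow MACRO over NL 1 was higher and 3 were lower, with a median of -0.25, among them Smad6 (-3.59) and Tgfbr2 (-0.77). On total counts none was higher in either NL comparison, and 9 and 7 were lower. The endothelial marker sums fell alongside, and their part in these values was not tested. Beside 9.29% of all tested genes higher and 15.9% lower between the MACRO groups, 3 of the 11 were higher in Ly6Glow and none lower. These included the repressor Tgif1 at 134 against 57.2 CPM (1.22) and the SMAD corepressor Skil at 503 against 288 CPM (0.81). On total counts only Tgif1 was called, since Skil was at 0.57 and Smad7, the other of the 3, at 0.52.

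Of 11 corepressors and coactivators that bind KLF proteins, 5 were higher and 1 lower in Ly6Ghigh MACRO over NL (median 0.55). In Ly6Glow MACRO over NL 4 were higher and 2 lower (median 0.54). DESeq2 called 5 higher and 1 lower in the first, but 8 higher and 2 lower in the second. Between the MACRO groups (median -0.02) none was called by edgeR or by DESeq2. There 9 of 11 had an unadjusted p under 0.05 in edgeR, 5 higher and 4 lower. On total counts the edgeR calls in the 3 comparisons became 2 higher and 2 lower, 2 higher and 3 lower, and 3 lower, which were Ctbp2, Hdac2 and Kat2a. The acetyltransferase gene Ep300 went from 160 CPM in NL to 294 and 346 CPM (0.88 and 1.11, falling to 0.41 and 0.41 on total counts, not called). Fhl3, a LIM-domain cofactor of Klf3, went from 10.98 CPM to 30.3 and 41.5 CPM (1.46 and 1.92), and Kat2a fell from 14.3 to 6.46 and 4.86 CPM (-1.14 and -1.55). Crebbp was at 109, 132 and 176 CPM in NL, Ly6Ghigh MACRO and Ly6Glow MACRO. Of 8 ubiquitin ligases described as acting on KLF proteins, 2 were higher and 2 lower in Ly6Ghigh over NL (median -0.08), 2 higher and 1 lower in Ly6Glow over NL (median 0.15), and none was called between the MACRO groups (median 0.26), with 7 of 8 at an unadjusted p under 0.05 in edgeR and none called by DESeq2. On total counts 2 were higher and 4 lower in each NL comparison and none was called between the MACRO groups. For both lists, the share of all tested genes at that unadjusted p was not taken. With no fold threshold, 55.8% of all tested genes had an adjusted p of at most 0.05 between the MACRO groups (edgeR). The 9 of 11 and 7 of 8 are therefore not read as particular to these lists. Itch rose from 66.5 to 186 and 220.5 CPM (1.48 and 1.73) and Vhl from 16.9 to 42.0 and 57.0 CPM (1.31 and 1.75), while Smurf2 was at 72.5, 64.8 and 85.5 CPM and was not called, but was called lower in Ly6Ghigh MACRO over NL on total counts (-0.63).

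Of 15 tested genes described elsewhere as KLF targets, 3 were higher and 9 lower in each NL comparison, with medians of -1.71 for Ly6Ghigh and -1.49 for Ly6Glow MACRO, and 2 were higher and 2 lower in Ly6Glow over Ly6Ghigh MACRO, with a median of 0.06. On total counts these became 1 higher and 11 lower, 3 higher and 10 lower, and 1 higher and 4 lower. DESeq2 called 4 higher and 9 lower, 3 higher and 9 lower, and 5 higher and 2 lower in the same order. The shares of all tested genes called were 62.9%, 69.5% and 25.2% with TMM, and 60.9%, 66.1% and 30.5% on total counts. Itgb7, an integrin gene, was at 49.5 CPM in NL, 42.6 in Ly6Ghigh MACRO and 20.2 in Ly6Glow MACRO, lower in Ly6Glow than in both other groups (-1.29 and -1.08). Eng, an endothelial receptor gene, fell from 144 to 13.3 and 14.8 CPM (-3.44 and -3.27), and Ccnd1, a cyclin, from 36.5 to 4.88 and 5.08 CPM (-2.90 and -2.84). Plaur, the urokinase receptor gene, was at 1120.0, 701 and 1015 CPM. The endothelial, epithelial and fibroblast marker sums fell alongside Eng and Ccnd1, and their part in these values was not tested.

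Klf2, Klf4, Klf6 and Klf10 are themselves known to respond quickly to tissue dissociation, so 22 immediate early and dissociation genes were read beside them. They moved in both directions, 6 higher and 8 lower in Ly6Ghigh MACRO over NL (median 0.10), 9 higher and 5 lower in Ly6Glow MACRO over NL (median 0.21), and 9 higher and 5 lower in Ly6Glow over Ly6Ghigh MACRO (median 0.43). On total counts these became 3 higher and 9 lower, 3 higher and 10 lower, and 4 higher and 5 lower. The shares of all tested genes called were 62.9%, 69.5% and 25.2% with TMM, and 60.9%, 66.1% and 30.5% on total counts. Fosb went from 697 CPM in NL to 145 and 204 CPM (-2.26 and -1.77) and Egr2 from 117 to 27.8 and 18.4 CPM (-2.07 and -2.67), both falling as Klf4 did. Nfkbia went from 419 to 1253 and 2238 CPM (1.58 and 2.42) and Zfp36 from 964 to 1777 and 2527 CPM (0.88 and 1.39), and the heat shock gene Hspa1a was at 352, 1146 and 528 CPM. Junb was at 1324, 1669 and 2870 CPM. Egr3 was at 63.0, 22.1 and 48.2 CPM. The part of dissociation in the levels of the members was not tested.

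The genes most like each member over the 9 libraries were sought among 7397 genes with a mean of at least 10 CPM, by Pearson's r of log2 CPM. The 9 libraries fall into 3 groups, so r mostly reads the spacing of 3 group means and is a description. Among the 2 nearest to each were Fam20c (r = 0.99994) and Lrch4 for Klf2, F2r (r = 0.99928) for Klf4, Cflar and Nufip2 for Klf6, Cd84 and Mcl1 for Klf7, Ptpn6 and Adam15 for Klf13, Fth1 and Cass4 for Klf3, and Cxcl2 (r = 0.99266) and H60b for Klf10. Such likeness was common for Klf2 and Klf13, with 1963 and 1813 genes above an r of 0.95, and for Klf6, Klf7 and Klf4 (1385, 1306 and 938), and rarer for Klf3 and Klf10 (240 and 191).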

How the data were processed

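RNA of 9 libraries was sequenced as poly(A), stranded, paired-end reads, per the labels. The authors deposited estimated counts per gene, of which 37.9% are whole, and FPKM values, with 22064 genes listed, 3739 of them blank in all libraries. The genome build in the submitters' processing notes is mm10, and the aligner and counting program are not given in the sources used here. Here the estimated counts were rounded, filtered with filterByExpr (14108 genes) and tested with edgeR 4.0.16 on all 9 libraries with TMM scaling and a Benjamini-Hochberg adjustment over all tested genes. Groups came from the sample titles. The FPKM values as deposited were used for levels between genes and, with limma 3.58.1, as alternatives with a pseudocount of 1 or 0.1; DESeq2 1.42.0 was another. Simulated counts served as a check of the fits. Positions came from GENCODE M21 on GRCm38, which is mm10, and promoter windows from RefSeq.

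The members and gene lists were chosen with earlier results of these data known. Named genes were the members, the other KLF and SP genes that passed the filter, in each list the 2 most abundant and the 2 largest called changes per comparison, and the 2 genes most like each member; a few of these are not reported here. Other choices tried were size factors, filters, thresholds, pseudocounts, the libraries in the fit, a replicate block and, chosen after seeing the data, total counts without TMM factors. FPKM gives no depth, and depth here is the total of estimated counts; within groups r of log2 CPM was at least 0.990, no pair of replicates agreed within sampling noise, and NL replicate 2 differed most from its group.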

Additional observations from a re-analysis of the deposited data

How the results depend on the processing

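Klf2 and Klf4 kept their direction and their calls against NL under every setting tried, and Klf13 kept its call in Ly6Ghigh MACRO over NL. On log2(FPKM + 1), log2(FPKM + 0.1), log2(FPKM + 1) with FPKM of at least 1, and total counts, 4 log2 fold changes reversed: Klf10 in Ly6Glow MACRO over NL (-0.22, -0.22, -0.22 and -0.22), Klf3 there (-0.32, -0.32, -0.32 and -0.37), Klf6 there (-0.018, -0.018, -0.018 and -0.019) and Klf6 in Ly6Ghigh MACRO over NL (-0.087, -0.088, -0.087 and -0.089). Total counts shift all genes of a comparison by nearly the same amount and FPKM has no factor between libraries, so these reversals follow from the choice of scaling. Called members numbered 5 in Ly6Glow MACRO over NL but 2 under each of these 4 settings, which called 53.6% to 66.1% of all tested genes. Klf6 also lost its call in that comparison with upper-quartile factors (0.49) and with at least 10 counts in every library (0.50). In Ly6Ghigh MACRO over NL called members numbered 3, and 6 with no fold threshold, where 84.6% of all tested genes were called. On total counts Klf10 was also called there, as lower (-0.58). In Ly6Glow over Ly6Ghigh MACRO called members numbered 1, and 6 with no fold threshold (55.8% of all tested genes). They numbered 0 at a threshold of 1 (9.25% of all) and 0 on log2(FPKM + 1) without or with the FPKM filter (15.9% and 18.8% of all). Leaving out 1 library gave 0 to 1. Called other KLF and SP genes numbered 10 in Ly6Ghigh MACRO over NL, and 6 with at least 10 counts, at a threshold of 1 and on log2(FPKM + 1), and 5 with the FPKM filter. They numbered 10 in Ly6Glow MACRO over NL, and 6 at a threshold of 1 and 5 with the FPKM filter. They numbered 2 between the MACRO groups, and 1 by DESeq2, with at least 10 counts and on log2(FPKM + 1) with or without the filter. With no fold threshold they numbered 8 and at a threshold of 1 they numbered 0, and leaving out 1 library gave 1 to 2. At a threshold of 1, the shares of all tested genes called were 42.6% in Ly6Ghigh MACRO over NL, 50.2% in Ly6Glow MACRO over NL and 9.25% between the MACRO groups. Between groups, deviations of libraries with the same replicate number correlated at -0.068 to 0.077, and those with other numbers at -0.100 to 0.139. With 3 libraries per group this cannot exclude pairing by animal. A fit with the replicate block left the counts of called members at 3, 5 and 1 and of other KLF and SP genes at 10, 10 and 2. For the 6 lists of related genes, the count of called genes was set beside the main one for each list, comparison and setting. It moved by over 1.5 times, or to or from none, in 53 of these cases, and by less or not at all in 361.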
